A study of Mus musculus with 24 samples.

Results

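Kinesins and centromere proteins (CENPs) move and anchor chromosomes, and other kinesins carry cargo along microtubules. The genes described here are the protein-coding genes of the mouse annotation whose symbol begins with Kif and a digit, with Kifc or with Cenp, chosen by symbol and not by any measured value. They number 64 of 21938 protein-coding genes. The 64 genes were sorted by known role into 15 mitotic kinesins, 21 CENP genes and 27 other kinesins, and Kif1bp, which encodes a kinesin-binding protein and not a motor, was kept apart. The genes, these groups and the gene lists used below were chosen with earlier results of these data known.

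Protein interaction profile sequencing (PIP-seq) was used on MEL cells, a murine erythroleukemia cell line that undergoes erythroid differentiation in DMSO. All cells were of this 1 line and were crosslinked with formaldehyde, and they were undifferentiated (day 0) or had been in 2% DMSO for 2 or 4 days. Lysates were digested with a single-stranded RNase (ssRNase) or a double-stranded RNase (dsRNase), either before protein removal (footprint) or after it (structure only), in 2 replicates, giving 24 libraries in 12 groups, 8 libraries a day. A protein-protected site (PPS) is an interval in which the footprint reads exceed those of the structure-only libraries.

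Kinesins are motor proteins that walk along or take apart microtubules. In dividing cells, mitotic kinesins build the spindle, align chromosomes and complete cytokinesis, while most CENPs are part of the centromere or of the kinetochore, the structure by which a chromosome is held to the spindle. Kinesins such as Kif5b and Kif1b instead haul organelles and vesicles. Terminal erythroid differentiation includes exit from the cell cycle.

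The values below are exonic coverage, the percentage of a gene's exonic nucleotides that lay in a PPS on the same strand. Intronic coverage is the same percentage over gene nucleotides outside all its exons. PPSs of 20 to 40 nt, the size of a ribosome footprint, were left out. A pooled value uses the merged list of a day, and a replicate value uses the PPSs with at least 1 call of that replicate, so a pooled value is never below that of either replicate. Replicates of a day share merged coordinates, so their spread is too small, and 2 replicates a day allow no exact two-sided p below 0.333. Each change is therefore given without a p-value, beside the lowest and highest value among its 4 replicate pairs. More PPS coverage can follow from more RNA or from more protein on each RNA, and these cannot be told apart in the PPS lists.

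The erythroid label of the cells was checked on markers. Exonic coverage of Hba-a1, an alpha globin gene, was 26.0%, 53.4% and 76.8% at day 0, day 2 and day 4. The other 8 erythroid markers examined also had PPSs, and all 9 were higher at day 4 than at day 0. Not all rose steadily, as Tfrc, the transferrin receptor gene, had 33.8%, 22.8% and 53.9%, and Klf1, an erythroid transcription factor gene, had 20.1%, 36.7% and 22.4%. Col1a1 and Col1a2 of fibroblasts, Cd3e of T cells and Alb of hepatocytes were at 0 on each day. After removal of the ribosome-sized sites, the lists held 114907, 119487 and 122038 PPSs. The share of PPSs with dsRNase calls was 44.5%, 33.8% and 64.3%, so that each nuclease is also followed by itself below. The lists do not hold the depth of single libraries, for which the study gives only a range of raw reads.

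Exonic PPSs were found on 49 of the 64 genes (76.6%), against 9550 of all 21938 protein-coding genes (43.5%). All 21 CENP genes and 14 of 15 mitotic kinesins carried at least 1. Among the other kinesins, 13 of 27 did, Kif13a had intronic PPSs only, and 13 had none on any day. The genes without a PPS were Kif2b, a mitotic microtubule depolymerase, and the other kinesins Kif12, Kif17, Kif19a, Kif1a, Kif21a, Kif26a, Kif26b, Kif27, Kif3c, Kif5a, Kif5c, Kif6 and Kif9. Kif1a, Kif5a and Kif5c are known from neurons. Also among PPSs of 20 to 40 nt, 0 of these 14 genes had a site.

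Sequences at a few high-scoring sites are shown first, as examples that do not reflect how common each class of site was. For other kinesins, sites found at day 4 only were more numerous than those at days 0 and 2 only, but none is printed. Each line gives 30 bases of the GRCm38 genome (mm10) in the direction of the gene around the 5′ edge of a PPS, read 5′ to 3′. The capitals mark the 15 bases inside the PPS and the lower case the 15 bases before it, which can be intronic. The first 3 lines are the highest-scoring coding sites of mitotic kinesins other than Kif20a, among those called in both replicates of a day. In order, these lines show the top site found at days 0 and 2 only, on all 3 days, and at day 4 only. They are followed by a CENP site found on all 3 days, a CENP site found at day 4 only, and a site of another kinesin found at days 0 and 2 only.
Kif11, chr19:37411525-37411554, plus strand, days 0 and 2: ccctgaacacaagcaCAGTTCATTTCTCTG
Kifc5b, chr17:26925480-26925509, plus strand, days 0, 2 and 4: tgtggcccacactgcCCAGAATAAGAGATC
Kif2a, chr13:106987354-106987383, minus strand, day 4: ctttttccttttagcACGTAGAAAATCCAA
Cenpa, chr5:30672327-30672356, plus strand, days 0, 2 and 4: ttcttaagcccctgtCAGCTTGCTCTGAGG
Cenpb, chr2:131179077-131179106, minus strand, day 4: gccctgcgactacacTGCCAACTCGAAGGG
Kif3b, chr2:153320564-153320593, plus strand, days 0 and 2: tgtggtattgctcagAAACGTCGAGAAAGA

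The Cenpa site on all 3 days included the highest-scoring PPS of the 64 genes in the day 0 list, chr5:30672342-30672607, with a score of 83.61. Cenpa encodes the histone H3 variant that marks centromeres, and this PPS overlapped coding sequence. The highest score in the day 2 list was that of an intronic PPS of Cenpo, chr12:4204279-4204629, at 64.62. In the day 4 list it was an intronic PPS of Kif13b, chr14:64753917-64754041, at 62.59, and Kif13b also had a day 0 PPS from the same first base. The Cenpb site of day 4 scored 49.92, and the Kif11 site of days 0 and 2 reached 54.97. A score is the authors' enrichment value. Scores of different days are not compared here, except that the sites printed above were picked by their highest score in any list. Kif20a and Kif5b were left out of this pick, so a higher-scoring site on either gene would not have been printed.

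A minority of the genes had a PPS over the start codon on each day. The lines give 30 bases with the annotated start codon in capitals for 7 mitotic kinesins and CENP genes, chosen because the start codon lay in a PPS at days 0 and 2, on all days or at day 4 only.
Kif4, chrX:100626456-100626485, plus strand, days 0 and 2: ctgagctggtaccATGaaagaagaggtgaa
Kif15, chr9:122951121-122951150, plus strand, days 0 and 2: ggacggggtcgccATGgcccccggctgcaa
Kif18a, chr2:109287829-109287858, plus strand, days 0 and 2: gaggtaactaagaATGtctggcactgaaga
Cenpe, chr3:135212646-135212675, plus strand, days 0 and 2: tgcagcggacaggATGgccgaggaggcttc
Cenpo, chr12:4233560-4233589, minus strand, days 0, 2 and 4: acccgaagaggagATGgagtctgcaaatac
Kif2a, chr13:107022059-107022088, minus strand, day 4: tccggatgaggtgATGgcaacggccaactt
Cenpx, chr11:120713703-120713732, minus strand, day 4: cgagactgtggccATGgagggaaacagtgg
Start codons of 3, 6 and 2 of 15 mitotic kinesins (20%, 40% and 13.3%) lay in a PPS at day 0, day 2 and day 4. For CENP genes the counts were 3, 5 and 3 of 21 (14.3%, 23.8% and 14.3%). For other kinesins they were 0, 2 and 1 of 27 (0%, 7.41% and 3.70%). Over all protein-coding genes the shares were 7.40%, 6.95% and 6.07%. Mitotic kinesins and CENP genes lay above these shares on each day, from small counts and without a background of covered genes. The start codon was covered at day 0 and day 2 but not at day 4 for Kif4, Kif15, Kif18a and Cenpe, and at day 4 only for Kif2a and Cenpx and for the other kinesin Kif1b.

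By day 4, PPS coverage of mitotic kinesins had dropped, that of CENP genes had dropped less, and that of other kinesins was near its day 0 value. The 15 mitotic kinesins had a mean exonic coverage of 11.7% and 12.4% in replicates 1 and 2 at day 0, 11.1% and 11.1% at day 2, and 5.21% and 4.43% at day 4. The 21 CENP genes had 7.25% and 6.44%, 6.02% and 6.38%, and 4.80% and 4.25%. In both groups the day 4 replicates lay below every earlier replicate. The 27 other kinesins had 1.86% and 1.92%, 1.10% and 1.65%, and 2.15% and 1.66%, and their day 0 and day 4 replicates overlapped. All protein-coding genes had 2.79% and 2.83%, 2.38% and 2.44%, and 3.15% and 2.76%.

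In the pooled lists the mean change from day 0 to day 4 was -9.44 percentage points for mitotic kinesins, with pairs of replicates from -7.97 to -6.48. For CENP genes it was -3.18 points, with pairs from -3.00 to -1.65. For other kinesins it was 0.142 points, with pairs from -0.264 to 0.288, so its sign is not settled, and all protein-coding genes gave 0.0204 points. The medians over genes were -9.96, -3.43, 0 and 0 points. For other kinesins and for all protein-coding genes the median had to be 0, since most of these genes had no exonic PPS on any day. The mean change of mitotic kinesins and CENP genes together minus that of other kinesins was -5.93 points, with pairs from -4.57 to -4.18. A pooled change can lie outside the range of its pairs because pooled lists cover more. From day 0 to day 2 the same difference was -0.0474 points, with pairs from -0.535 to 0.0336, so its sign at day 2 is not settled.

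**Figure D1:**
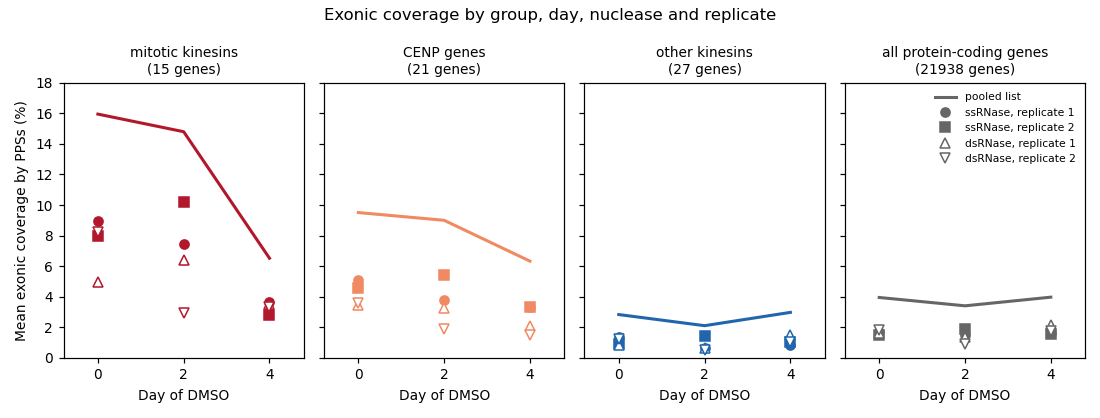
Mean exonic coverage (percent, y axis) of 15 mitotic kinesins, 21 CENP genes, 27 other kinesins and 21938 protein-coding genes by day of DMSO (x axis); lines join the pooled lists, and points are the 4 call sets of a day, filled for ssRNase and open for dsRNase. Mitotic kinesins went from 15.95% to 14.8% and 6.52% in the pooled lists and CENP genes from 9.51% to 9.0% and 6.33%, while other kinesins stood at 2.83%, 2.10% and 2.97%.

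Each nuclease gave a lower mean for mitotic kinesins and for CENP genes at day 4. A merged PPS with calls of both nucleases counts in full for each, so the nucleases are not independent of each other. Of the exonic PPSs on mitotic kinesins at day 0, 71.6% had ssRNase calls and 62.7% had dsRNase calls. With ssRNase calls the means of mitotic kinesins were 8.93% and 7.97% in the replicates of day 0 and 3.67% and 2.83% at day 4. With dsRNase calls they were 4.95% and 8.25%, and 3.54% and 3.30%. CENP genes had 5.12% and 4.59% against 3.32% and 3.32% with ssRNase, and 3.48% and 3.55% against 2.06% and 1.499% with dsRNase. The replicates of day 0 and day 4 did not overlap in any of these comparisons. For other kinesins, ssRNase calls gave a pooled change of -0.290 points and dsRNase calls one of 0.499 points, with overlapping replicates for each nuclease. Day 2 was uneven between replicates, with means of mitotic kinesins of 7.46% and 10.2% with ssRNase and 6.42% and 2.90% with dsRNase.

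A gene was called higher or lower when its pooled exonic coverage changed by 5 points or more and all 4 pairs of replicates moved the same way. From day 0 to day 4, 12 of 15 mitotic kinesins, 7 of 21 CENP genes and 2 of 27 other kinesins were called lower, where 6.35% of all protein-coding genes were. Called higher were 1 mitotic kinesin, 3 CENP genes and 3 other kinesins, where 6.67% of all protein-coding genes were. The share of other kinesins called lower, 7.41%, was near that of all genes. Many of the 64 genes are well covered, and a 5-point change needs coverage, so genes with a mean coverage of at least 5% over the 3 lists form a closer background. Among them 21.2% were called lower and 23.9% higher, and among genes with any exonic PPS 14.6% and 15.3%. Of the 13 mitotic kinesins that well covered, 12 were called lower and 1 higher, and of 13 such CENP genes 7 were lower and 3 higher. Of 5 such other kinesins, 1 was lower and 2 were higher.

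**Figure D2:**
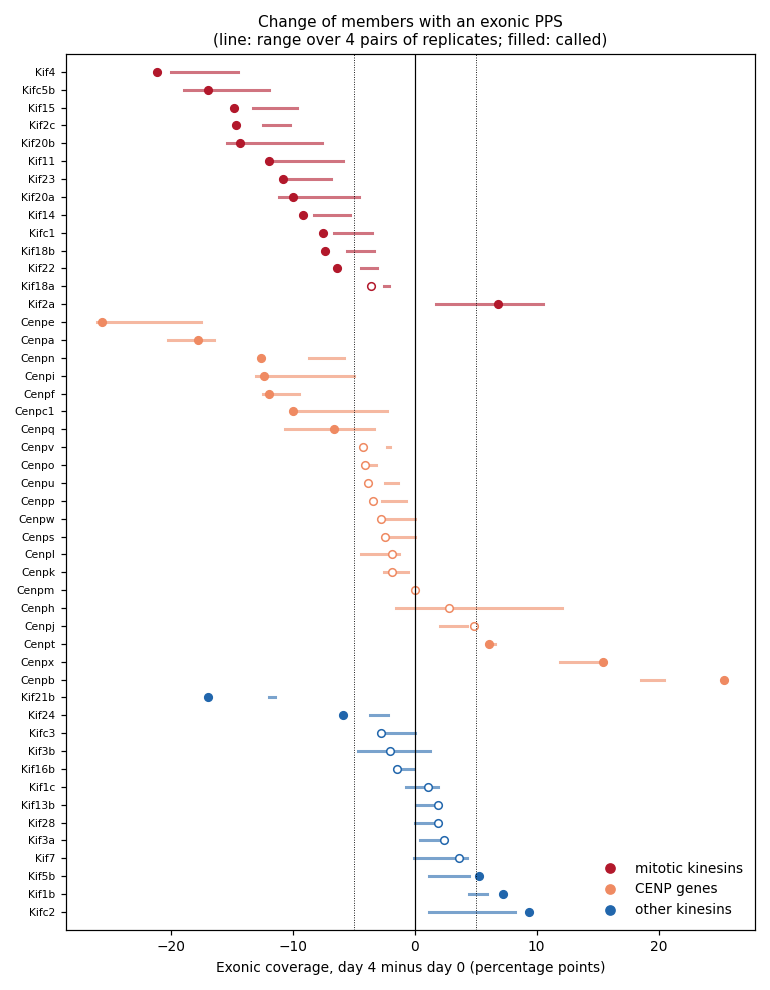
Change in exonic coverage from day 0 to day 4 (percentage points, x axis) of the 48 motor and CENP genes with an exonic PPS (y axis); dots are pooled values, filled where called, horizontal lines span the 4 pairs of replicates, and dotted lines mark the 5-point limit. Mitotic kinesins lie left of 0 except Kif2a, CENP genes run from -25.6 (Cenpe) to 25.3 (Cenpb), and other kinesins run from -16.9 (Kif21b) to 9.38 (Kifc2).

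Among mitotic kinesins, Kif11, Kif15 and Kif2c were called lower at day 4 and Kif2a higher. Kif11, which pushes the spindle poles apart, had 10.0% and 14.6% in replicates 1 and 2 at day 0, 10.7% and 6.84% at day 2, and 2.65% and 4.14% at day 4. Kif15, which assists Kif11, had 11.2% and 14.4%, 9.43% and 8.85%, and 1.15% and 1.56%. For both, the day 4 replicates were far below the earlier ones, and the pooled changes from day 0 were -11.9 and -14.8 points. The microtubule depolymerase Kif2c had 11.8% and 12.4% at day 0, 7.75% and 10.4% at day 2, and 0% and 1.65% at day 4, a pooled change of -14.6 points. Its relative Kif2a went the other way. Kif2a had 11.4% and 6.01% at day 0, 13.1% and 7.59% at day 2, and 16.5% and 13.2% at day 4. It was the 1 mitotic kinesin called higher, by 6.85 points with pairs from 1.75 to 10.5. Outside mitosis, Kif2a is known for trimming microtubules in neurons.

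Kif4, Kif22 and Kif18b were called lower too, and Kif18a was not called. The chromokinesin Kif4 had 17.8% and 22.4% at day 0, 15.3% and 16.5% at day 2, and 3.32% and 2.43% at day 4, a pooled change of -21.1 points that was the largest fall among mitotic kinesins. Kif22, another chromokinesin, went from 9.14% to 10.3% and 2.77% in the pooled lists. Kif18b, which shortens microtubule plus ends, went from 7.36% to 8.90% and 0%. Kif18a, which damps chromosome movement, went from 3.54% to 4.10% and 0% and stayed under the 5-point limit, although both day 4 replicates had no exonic PPS. It was called lower when the transcript with the longest CDS replaced the union of exons.

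Kif20b, Kif23, Kif20a and Kif14, each known for a part in cytokinesis, were called lower gene by gene. Kif20b had 15.96% and 19.2% at day 0, 13.2% and 10.5% at day 2, and 8.34% and 3.84% at day 4. Kif23, the motor of the centralspindlin complex, had 11.0% and 8.97%, 10.5% and 12.3%, and 2.11% and 0.671%. Kif20a, needed at the midzone, had 6.87% and 12.4%, 6.06% and 3.62%, and 2.31% and 1.27%. Kif14, also needed for abscission, had 6.30% and 8.70%, 7.92% and 10.2%, and 1.02% and 0.415%. The pooled changes of the 4 genes from day 0 to day 4 were -14.3, -10.8, -9.96 and -9.18 points. That their day 0 and day 4 replicates did not overlap is required by the call rule. The call of Kif14 was lost when a PPS needed calls of both replicates.

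The minus-end motors Kifc1 and Kifc5b kept the highest coverage at day 4 of the mitotic kinesins. Kifc5b had 34.6% and 32.8% at day 0, 28.6% and 36.6% at day 2, and 20.9% and 15.7% at day 4. Kifc1 had 24.7% and 23.9%, 24.4% and 33.2%, and 18.1% and 20.4%. Both were called lower, with pooled changes of -16.9 and -7.53 points. The 2 genes share much of their sequence. Of the exonic 31-base words of Kifc1, 54.0% were also in Kifc5b, and of those of Kifc5b, 49.5% were in Kifc1. Reads with up to 10 alignments were kept in the mapping that the study describes, so PPSs on these stretches cannot be assigned to either gene. The median over the 64 genes was 1.55% of words with another exact copy on the 21 chromosomes, and 7 genes exceeded 10%, namely Kifc1 (57.1%), Kifc5b (51.7%), Kif5b (23.2%), Cenpc1 (17.6%), Kif3c (17.3%), Kif2a (17.0%) and Cenpw (10.8%).

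**Figure D3:**
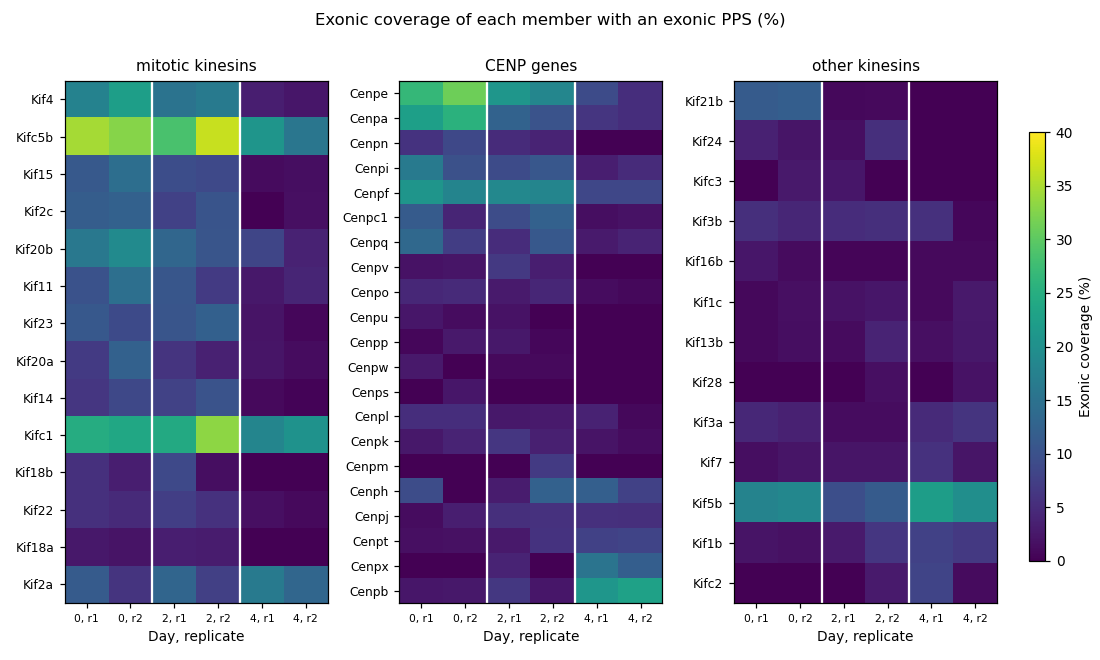
Exonic coverage (percent, colour scale from 0 to 40) of the 48 motor and CENP genes with an exonic PPS, by day and replicate (columns; r1 and r2 are replicates), sorted within each group by the pooled change from day 0 to day 4. Darker cells are lower, and most mitotic kinesins are darkest at day 4 (Kif4 at 3.32% and 2.43%), while Cenpb (21.1% and 22.9%) and Cenpx (15.4% and 11.9%) are brightest there.

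Cenpe, Cenpf, Cenpa and Cenpc1 were among the 7 CENP genes called lower at day 4. Cenpe, itself a kinesin that carries chromosomes to the spindle equator, had 26.6% and 31.2% at day 0, 21.0% and 18.3% at day 2, and 9.10% and 5.22% at day 4. Its pooled change of -25.6 points was the largest fall among the 64 genes. Cenpf, a long coiled-coil protein of the kinetochore, had 20.9% and 18%, 18.7% and 18.1%, and 8.46% and 8.51%. The centromeric histone Cenpa had 22.6% and 25.5%, 12.6% and 10.3%, and 6.14% and 5.27%, and unlike Cenpf it was already called lower at day 2. Cenpc1, which links Cenpa nucleosomes to the outer kinetochore, had 11.5% and 4.21%, 9.32% and 12.4%, and 1.56% and 1.92%, and its 2 day 0 replicates differed more than those of the other 3.

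The remaining CENP genes mostly encode subunits of the constitutive centromere-associated network, which sits on Cenpa chromatin. Cenpn, which reads the Cenpa nucleosome, had 5.80% and 8.65% at day 0, 4.98% and 4.04% at day 2, and no exonic PPS at day 4. Cenpi fell from 18.2% to 13.4% and 5.88% in the pooled lists, and Cenpq from 13.5% to 11.0% and 6.87%. Cenpo was under the limit with 6.25%, 6.32% and 2.20%, and it was called lower on the transcript with the longest CDS. No exonic PPS was found at day 4 on Cenpm, Cenpn, Cenpp, Cenps, Cenpu, Cenpv and Cenpw, and exonic PPSs were found on 19, 20 and 14 of the 21 CENP genes on the 3 days. Cenpm had a site in replicate 2 of day 2 only, where 6.74% of its exonic nucleotides were covered. Cenph gave 9.30% and 0% at day 0, so its day 4 values of 12.1% and 7.79% overlapped them.

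Cenpb, Cenpx and Cenpt were called higher at day 4. Cenpb, which binds the CENP-B box of centromeric satellite DNA, had 2.50% and 2.52% at day 0, 6.49% and 2.50% at day 2, and 21.1% and 22.9% at day 4. The gain of 25.3 points was the largest rise among the 64 genes. It was present with each nuclease, although a merged PPS can count for both. With ssRNase calls Cenpb had 2.50% and 1.00% at day 0 and 14.3% and 19.9% at day 4, and with dsRNase calls 0% and 1.51%, then 9.46% and 10.3%. Its exonic PPSs numbered 3, 6 and 20. Cenpx, a small histone-fold protein that also serves in the Fanconi anaemia pathway, had 0% and 0%, 3.99% and 0%, and 15.4% and 11.9%. Cenpt, a DNA-binding subunit of the network, had 1.59% and 1.81%, 2.66% and 5.79%, and 7.79% and 8.17%. Cenpj, whose product builds centrioles and not centromeres, was called higher at day 2 and had 1.25% and 3.41%, 5.46% and 5.72%, and 5.56% and 5.46%.

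**Figure D4:**
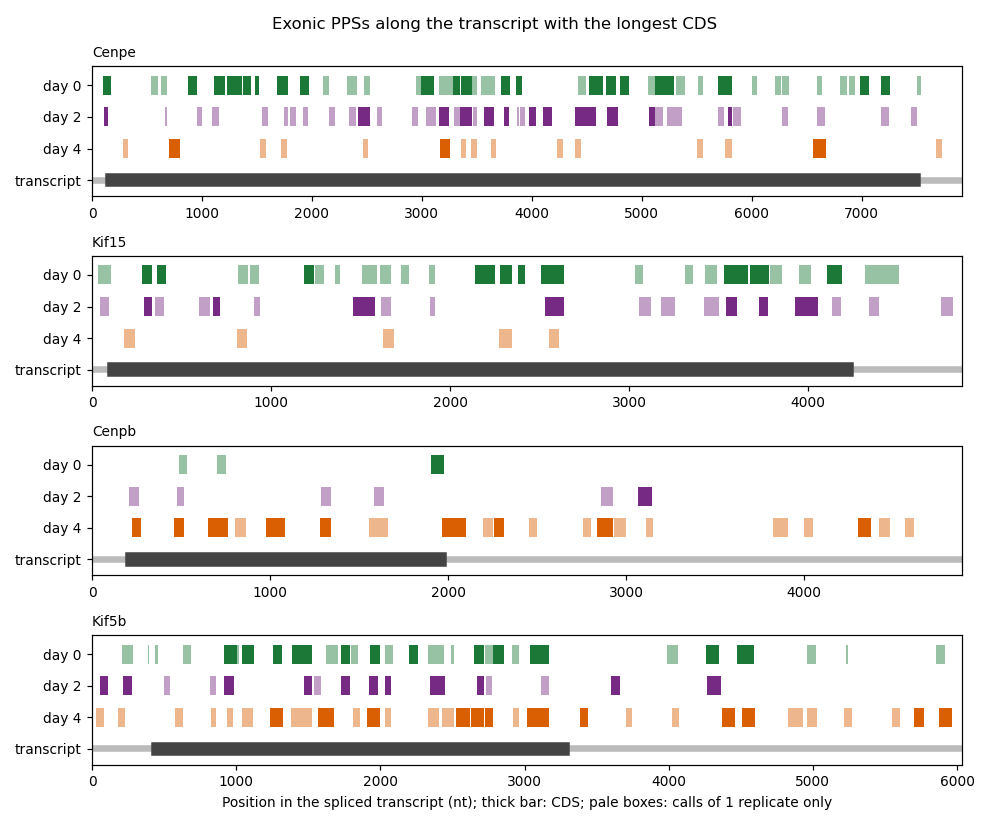
Exonic PPSs of Cenpe, Kif15, Cenpb and Kif5b along the spliced transcript with the longest coding sequence (x axis, nt; thick bar, CDS) at day 0, day 2 and day 4 (rows); dark boxes have calls of both replicates and pale boxes of 1 replicate. Cenpe and Kif15 sites spread over the CDS and thinned out by day 4 (from 42 to 16 and from 26 to 5 exonic PPSs over the whole gene), whereas Cenpb gained sites in the CDS and the 3′ UTR.

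Among other kinesins, Kif5b, Kif1b and Kifc2 were called higher at day 4 and Kif21b and Kif24 lower. Kif5b, the conventional kinesin heavy chain, had 17.8% and 18.6% at day 0, 9.57% and 11.4% at day 2, and 22.3% and 19.8% at day 4. Coverage of Kif5b thus dipped at day 2, where it was called lower, and was called higher at day 4 by 5.31 points, close to the limit. Kif1b, a carrier of mitochondria and vesicles, had 2.08% and 1.81%, 2.87% and 6.38%, and 7.75% and 6.57%. Kifc2 had 0% and 0%, 0% and 2.90%, and 8.24% and 1.14%, and its rise rested mainly on replicate 1 of day 4. Kif21b had 11.4% and 11.9% at day 0, 0.829% and 1.03% at day 2, and no exonic PPS at day 4. It lost its coverage earlier than the mitotic kinesins, with 25, 4 and 0 exonic PPSs. Kif24, which acts at centrioles, had 3.68% and 2.20%, 1.53% and 5.40%, and 0% and 0%.

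The remaining covered other kinesins were not called at day 4. Kif3a and Kif3b, the paired motors of intraflagellar transport, had 6.50%, 2.57% and 8.90%, and 8.27%, 8.18% and 6.23% in the pooled lists, and Kif3a was called higher from day 2 to day 4. Kif13b stood at 1.95%, 5.19% and 3.89%, and Kif7, a regulator of hedgehog signalling, at 3.84%, 3.54% and 7.44%. Kif1c, Kif16b, Kif28 and Kifc3 stayed at or below 2.92% on every day. The kinesin-binding protein gene Kif1bp had 0% and 0.981% at day 0, 6.73% and 1.27% at day 2, and 2.64% and 5.17% at day 4, and was called higher at day 2.

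The calls at day 4 depended in part on pooling. With the coverage of a day taken as the mean of its 2 replicates in place of the pooled list, 23 of the 28 calls were kept and 5 were lost, Kif18b at -4.45 points, Kif22 at -3.75, Kif24 at -2.94, Kif5b at 2.81 and Kifc2 at 4.69. Leaving out 1 replicate from these means ended 5 further calls. Without replicate 1 of day 0 the change of Cenpc1 was -2.47 points, of Cenpq -3.86 and of Kifc1 -4.63. Without replicate 2 of day 0, Kif2a was at 3.43. Without replicate 1 of day 4, Kif1b was at 4.62, Kif2a at 4.47 and Kifc1 at -3.90, and Kifc2 and Kif5b dropped further to 1.14 and 1.57. Calls of the other 18 genes were kept with any 1 replicate left out, although their values moved, as Cenpi was at -5.80 points without replicate 1 of day 0, and Kif20a at -5.08 and Kif11 at -6.64 without replicate 2 of day 0.

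At day 2, few of the 64 genes had changed by the same rule. Called higher were 2, Cenpj and Kif1bp, where 3.35% of all protein-coding genes were. Called lower were 8, where 7.48% were. Among genes with any exonic PPS the shares were 7.7% higher and 17.2% lower, and among genes with a mean coverage of at least 5% they were 11.3% and 26.9%, so the day 2 counts were not above the background of covered genes. They were the mitotic kinesins Kif4, Kif20a and Kif20b, the CENP genes Cenpa, Cenpe and Cenpn, and the other kinesins Kif5b and Kif21b. From day 2 to day 4, 19 genes were called lower and 5 higher (Cenpb, Cenpx, Kif2a, Kif3a and Kif5b), where 3.1% and 7.64% of all protein-coding genes were. Those shares were 7.12% and 17.6% among genes with any exonic PPS, and 10.6% and 28.7% among genes with a mean coverage of at least 5%. Mitotic kinesins made up 11 of those 19, CENP genes 7, and Kif24 was the other kinesin. In the pooled lists, the largest shift of mitotic kinesins thus lay between day 2 and day 4. It was -8.28 points on average, against -1.15 points between day 0 and day 2. With ssRNase calls these changes were -7.55 points, with pairs from -7.34 to -3.79, and -0.612 points, with pairs from -1.47 to 2.20. With dsRNase calls they were -4.05 points, with pairs from -3.12 to 0.644, and -2.53 points, with pairs from -5.35 to 1.46. Neither dsRNase sign is settled. For CENP genes, dsRNase calls gave the larger change before day 2, at -1.45 points. The later step was -0.922 points, with pairs from -1.75 to 0.163. All protein-coding genes also fell before day 2 with dsRNase calls, by -0.792 points, and then changed by 1.04 points. With ssRNase calls they changed by 0.155 and -0.263 points.

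Sites of mitotic kinesins and CENP genes were shared by day 0 and day 2 but not day 4 more often than those of all protein-coding genes. When overlapping exonic PPSs of the 3 days were joined, mitotic kinesins had 285 regions, of which 72 (25.3%) were found at days 0 and 2 only, 31 (10.9%) on all 3 days and 15 (5.26%) at day 4 only. CENP genes had 271 regions, with 61 (22.51%) at days 0 and 2 only, 36 (13.3%) on all days and 28 (10.3%) at day 4 only. Other kinesins had 203 regions, with 11 (5.42%), 16 (7.88%) and 47 (23.2%). Over the exons of all protein-coding genes, 7.96% of regions were found at days 0 and 2 only, 16.1% on all days and 19.8% at day 4 only. Many regions were seen at day 0 only or at day 2 only. These made up 25.3% and 24.6% for mitotic kinesins and 22.9% and 16.6% for CENP genes. For other kinesins they were 24.1% and 21.7%, and for all protein-coding genes 19.4% and 16.7%. Exonic PPSs on mitotic kinesins numbered 201, 198 and 75 on the 3 days, with 38.8%, 36.9% and 26.7% of them called in both replicates. Of all PPSs in the lists, exonic or not, 30.8%, 30.8% and 35.8% were.

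Coverage of mitotic kinesins was lower at day 4 than at day 0 in the 5′ UTR, the CDS and the 3′ UTR. Summed over the transcript with the longest CDS of each gene, 26.1% of the CDS of mitotic kinesins was covered at day 0, 22.6% at day 2 and 9.17% at day 4. For CENP genes the CDS values were 26.2%, 23.2% and 14.01%, for other kinesins 4.91%, 3.83% and 4.39%, and for all protein-coding genes 7.03%, 6.01% and 7.17%. In 5′ UTRs, mitotic kinesins had 16.01%, 19.9% and 6.77% and CENP genes 17.2%, 14.5% and 8.05%, where all protein-coding genes had 4.24%, 4.31% and 3.39%. Replicates 1 and 2 of the CENP 5′ UTRs had 15.4% and 13.6% at day 0, 12.4% and 6.65% at day 2, and 7.41% and 0.924% at day 4. The day 4 replicates thus differed widely, and those of day 2 and day 4 overlapped. In 3′ UTRs, coverage of mitotic kinesins went from 7.31% to 6.92% and 2.01%, while that of CENP genes went from 4.59% to 4.64% and 6.25%. Cenpb contributed to the latter, with 12 PPSs within its 3′ UTR at day 4 and none at day 0. Nucleotides of PPSs had a GC content of 47.9%, 49.0% and 48.0% on mitotic kinesins, whose exons had 44.8%, and of 48.4%, 50.1% and 46.3% on other kinesins, whose exons had 51.5%.

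Introns of mitotic kinesins and CENP genes lost most of their PPSs by day 4. Mean intronic coverage of the 14 mitotic kinesins with introns was 0.814% and 1.03% in the replicates of day 0, 1.05% and 1.31% at day 2, and 0.126% and 0.131% at day 4. The 20 CENP genes with introns had 0.824% and 0.769%, 0.937% and 0.911%, and 0.0972% and 0.0594%. In both groups day 4 lay below the earlier days in each replicate. The CENP mean rested largely on 2 genes, as Cenpa changed by -8.16 points and Cenpo by -5.71 points in the pooled lists. The median change of CENP genes from day 0 to day 4 was -0.124 points, against a mean of -0.994 points. For mitotic kinesins the median was -1.24 points and the mean -1.29 points. Other kinesins had 0.101% and 0.0690%, 0.0674% and 0.118%, and 0.163% and 0.149%, so their day 4 replicates were the highest. That rise was carried by Kif5b. Without it, the other 26 had 0.0726% and 0.0548% at day 0 and 0.0720% and 0.0647% at day 4, and these overlapped. Over all protein-coding genes the pooled means were 0.666%, 0.664% and 0.656%. Intronic PPSs numbered 75, 109 and 14 on mitotic kinesins, 81, 136 and 10 on CENP genes, and 26, 32 and 41 on other kinesins.

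With a limit of 1 point for introns, 12 of the 64 genes were called lower from day 0 to day 4 and 1 higher, where 4.81% and 4.4% of all protein-coding genes with introns were, and 13.4% and 12.3% of those with an intronic PPS. The 12 were Kif11, Kif15, Kif20a, Kif20b, Kif23, Kifc1, Kifc5b, Cenpa, Cenpe, Cenpi, Cenpo and Kif21b. Cenpa, with 2194 intronic nt outside all annotated exons, had 5.33% and 5.79% at day 0, 1.46% and 1.46% at day 2, and 0% at day 4. Cenpo, whose introns carry 16, 24 and 2 PPSs, had 5.13% and 5.48%, 5.67% and 6.65%, and 0.293% and 0%. Kif23 had 2.09% and 2.09%, 3.06% and 3.59%, and 0% and 0%. Kif5b was the gene called higher, with 0.847% and 0.440%, 1.02% and 1.11%, and 2.54% and 2.34%. At day 2, introns of Cenph, Cenpk, Cenpo and Kif23 were called higher than at day 0 and those of Cenpa and Kif21b lower, where 3.77% and 3.56% of all protein-coding genes with introns were, and 10.5% and 9.94% of those with an intronic PPS. From day 2 to day 4, introns of 15 genes were called lower, Cenpf, Cenph, Cenpk, Cenpp and Kif4 among them, and those of Kif5b higher, where 3.35% and 2.92% of all protein-coding genes with introns were, and 9.35% and 8.14% of those with an intronic PPS.

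**Figure D5:**
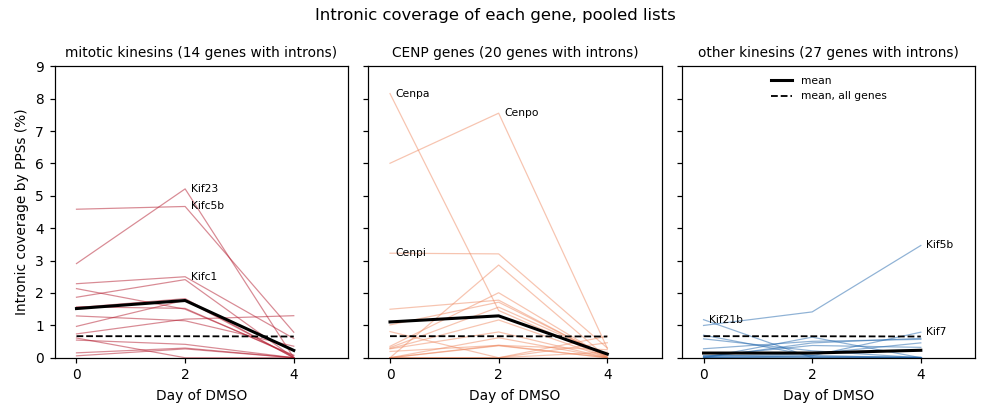
Intronic coverage (percent, y axis) of each mitotic kinesin, CENP gene and other kinesin with introns by day of DMSO (x axis), pooled lists; thin lines are genes, the thick line is the group mean and the dashed line the mean of all protein-coding genes. The 3 genes with the highest value are named in each panel, and the means of mitotic kinesins were 1.52%, 1.77% and 0.227%.

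Genes that work with the mitotic kinesins and CENPs were often called lower as well. In a list of 47 genes of the outer kinetochore, the spindle checkpoint and the spindle, 32 (68.1%) were called lower from day 0 to day 4 and 0 higher, where 6.35% of all protein-coding genes, 14.6% of those with an exonic PPS and 21.2% of those with a mean coverage of at least 5% were called lower. The median change of the list, whose 47 genes all had an exonic PPS, was -8.52 points. The median over all protein-coding genes is no reference for it. That median had to be 0, since only 9550 of 21938 genes had an exonic PPS on any day. The kinetochore scaffold Knl1 went from 38.1% to 21.3% and 8.05%, the mitotic kinase Plk1 from 26.8% to 17.7% and 0%, and Numa1, which gathers microtubules at the poles, stood at 31.3%, 27.9% and 30.1%. Of 9 kinesin light chain and cargo adaptor genes, 3 (33.3%) were called higher and 0 lower, with a median change of 3.13 points, where 6.67% of all protein-coding genes, 15.3% of those with an exonic PPS and 23.9% of those with a mean coverage of at least 5% were called higher. The 3 were Klc1, a light chain of Kif5b (22.2%, 32.6% and 34%), Rhot2, a mitochondrial GTPase (15.4%, 29.6% and 37.3%), and Trak2, a mitochondrial adaptor (2.92%, 4.19% and 9.92%).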

How the data were processed

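Per the labels and the study's methods, the authors trimmed reads with cutadapt 1.2.1, aligned them to mm10 with TopHat2 2.0.10, collapsed duplicates and called PPSs at a false discovery rate of 5% with a modified CSAR. Deposited are 3 PPS lists, 1 a day, merged over call sets. They hold coordinates, call names and a score, the authors' enrichment value, at least 5.4 in each list. How libraries were scaled is not given in the sources used here.

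Call names were matched to sample titles (12 call sets). Genes came from GENCODE M21, and all PPS ends lay within the GRCm38 chromosomes. Coverage, calls and ranges were computed in Python 3.11.15 with numpy 2.4.6 and pandas 2.3.3, and the functions were tested on simulated data. mRNA-seq and structure profiles were not analysed here.

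Named genes are, in each group, the 5 whose exonic coverage changed most by day 4 and the 5 by day 2, the 3 with the highest exonic and intronic coverage, all called genes, all without a PPS, and the highest-scoring PPS of each day. The genes, lists and rules were chosen with earlier results of these data known.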

Additional observations from a re-analysis of the deposited data

Results flagged for a closer look

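Sites outside the comparisons were present on the genes. On the sense strand, 568 PPSs of 20 to 40 nt lay on the 64 genes, a signal in a size class that the coverage values leave out. They numbered 156 at day 0, 315 at day 2 and 97 at day 4, and mitotic kinesins held 67, 147 and 31 of them. On the opposite strand, 14 PPSs touched no annotated exon of their own strand, summed over the 3 days, and 11 of these were on CENP genes. Of the sense PPSs on the 64 genes, the short ones made up 18.9%, 29.6% and 21.6% on the 3 days, near their share of all PPSs in the lists, 17.1%, 29.5% and 19.98%. Per 100 sense PPSs, the 64 genes had 0.791 such antisense PPSs and all protein-coding genes 3.08.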

How the results depend on the processing

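The lower coverage of mitotic kinesins and CENP genes at day 4 kept its direction, in exons and introns, under all alternatives run, and no single called gene changed sign. Of 28 calls at day 4, 15 held in all 12 other settings run at the 5-point limit (Cenpa, Cenpb, Cenpe, Cenpf, Cenpi, Cenpx, Kif11, Kif15, Kif20a, Kif20b, Kif21b, Kif23, Kif2c, Kif4 and Kifc5b) and 13 were lost in 1 or more (Cenpc1, Cenpn, Cenpq, Cenpt, Kif14, Kif18b, Kif1b, Kif22, Kif24, Kif2a, Kif5b, Kifc1 and Kifc2). The setting without nucleotides shared with another gene removed only overlaps with exons of other genes at the same place and strand. Repeated sequence stayed in. It removed 0% of the exonic nucleotides of Kifc1 and of Kifc5b, so it could not bear on the sequence that these genes share. Settings also added calls, above all the longest-CDS transcript, with 27 genes lower and 9 higher, where Cenpj, Cenpk, Cenpl, Cenpo, Cenpp, Cenpu, Kif18a and Kif1bp were called besides. The mean intronic change of other kinesins turned from 0.0855 to -0.00621 without Kif5b, which was left out after seeing the data. The values that moved by more than the replicate spread follow in percentage points; the cause was not tested.

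From day 0 to day 4, the mean exonic change of mitotic kinesins was -10.4 with all PPS lengths, -5.01 with calls of both replicates, -8.16 with ssRNase calls only, -6.58 with dsRNase calls only, -13.3 with the longest-CDS transcript and -7.22 as the mean of the replicates, a setting chosen after seeing the data. That of CENP genes was -3.78 with all lengths, -1.46 with both replicates, -2.37 with dsRNase, -4.73 with the longest-CDS transcript and -2.32 as the mean of the replicates. That of other kinesins turned negative with the same number of top-scoring PPSs (-0.0307), calls of both replicates (-0.119), ssRNase (-0.290) and the longest-CDS transcript (-0.0449), and was 0.499 with dsRNase. The difference between mitotic kinesins with CENP genes and other kinesins was -6.75, -2.82, -4.72, -4.62, -8.26 and -4.38 with all lengths, both replicates, ssRNase, dsRNase, the longest-CDS transcript and the mean of the replicates, -6.70 with Kif2a and Kif2b counted as other kinesins and -6.25 over genes with an exonic PPS.

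From day 0 to day 2, mitotic kinesins gave 0.765 with all lengths, a reversal, -0.699 with both replicates, -0.612 with ssRNase, -2.53 with dsRNase and -2.03 with the longest-CDS transcript. CENP genes gave -1.45 with dsRNase, and other kinesins -0.295 with both replicates and -0.301 with ssRNase. The difference between the groups turned positive with all lengths (0.845), without nucleotides shared with another gene (0.0156) and over genes with an exonic PPS (0.715), and was -0.454 with both replicates and -1.20 with dsRNase.

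The mean intronic change of mitotic kinesins from day 0 to day 4 was -0.298 with both replicates, -0.205 with dsRNase, -1.46 with the longest-CDS transcript and -0.795 as the mean of the replicates. That of CENP genes was -0.443, -0.584, -1.58 and -0.718 in these settings and -0.694 with ssRNase. The intronic difference to other kinesins was -0.440, -0.540, -1.63, -0.821 and -0.970.

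Of counts of calls at day 4, the limit of 10 points left 13 lower and 2 higher in exons, and introns had 5 lower with both replicates and 2 with dsRNase. At day 2, genes called higher numbered 4 with all lengths, 1 with both replicates, 1 with ssRNase, 0 with dsRNase, 5 with the longest-CDS transcript, 0 as the mean of the replicates, 5 at a limit of 2 points and 0 at 10 points. Genes called lower at day 2 numbered 4 with both replicates, 13 with the longest-CDS transcript, 5 as the mean of the replicates and 3 at 10 points.

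Leaving out each replicate of a day in turn, with coverage as the mean of the remaining replicates, gave exonic changes from day 0 to day 4 of -7.62 to -6.83 for mitotic kinesins, -2.72 to -1.92 for CENP genes, -0.235 to 0.258 for other kinesins and -4.49 to -4.26 for the difference. From day 0 to day 2 these were -1.28 to -0.572, -1.05 to -0.242, -0.789 to -0.235 and -0.418 to -0.0838. Other kinesins at day 4 turned negative without replicate 1 of day 4 (-0.235) and without replicate 1 of day 0 (-0.0178). Intronic changes at day 4 were -0.905 to -0.686, -0.745 to -0.691 and, for the difference, -0.866 to -0.776. Counts were 3 to 7 higher and 15 to 19 lower at day 4, 0 to 3 higher and 6 to 9 lower at day 2, and 1 higher and 7 to 10 lower in introns.

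No paired analysis was possible because no result comes from a test and the labels do not tie a replicate of one day to a replicate of another. The depth of the libraries is unknown from the lists, so an absent PPS says only that no site was called.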
